A study of Homo sapiens with 8 samples.

Results

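RASGRP1, THBS1, FSIP1, GPR176, EIF2AK4 and SRP14 are 6 protein-coding genes that follow one another on the long arm of chromosome 15 among the genes expressed here. They were chosen by symbol, as map neighbours with a difference between the groups already known, out of 26475 genes in the deposited table. All 6 were found in the table and all 6 passed the filter on low counts, as did 14008 genes in all. The samples were 8 RNA-seq libraries of BT474, a long-established line of human breast tumour cells that carries extra copies of ERBB2, and 4 were labelled NPY1R high and 4 NPY1R low. The cells had been grown to sub-confluence. NPY1R encodes a receptor for neuropeptide Y, and the labels name no drug, treatment time or edited allele for either group and do not say how the cells were separated. The series title places them in work on cells that survive lapatinib. Nothing in the labels says whether the replicates came from separate cultures, so p-values measure the spread between these samples, which may be technical.

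The 6 products have unrelated roles. RASGRP1 is an exchange factor that loads RAS proteins with GTP when calcium and diacylglycerol rise, and it is best known from T cells. THBS1 is thrombospondin 1, a secreted glycoprotein of the extracellular matrix that binds the cell surface proteins CD47 and CD36. FSIP1 is named for its interaction with the fibrous sheath of the sperm tail, and GPR176 is an orphan receptor that couples to the G protein Gz and is known from the circadian centre of the brain. EIF2AK4, also called GCN2, is the kinase that phosphorylates the translation factor eIF2 when uncharged tRNA accumulates. SRP14 pairs with SRP9 in the signal recognition particle, which pauses translation of proteins bound for the endoplasmic reticulum. Neighbouring genes can differ together when a stretch of chromosome has another copy number or chromatin state, or singly, and both patterns were looked for here by description.

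By the RefSeq annotation of GRCh38.p14, RASGRP1 lies at chr15:38488103-38564814 on the minus strand and THBS1 at chr15:39581079-39599466 on the plus strand. FSIP1 lies at chr15:39597440-39782841 on the minus strand and GPR176 at chr15:39799008-39920266 on the minus strand. EIF2AK4 lies at chr15:39934115-40035591 on the plus strand and SRP14 at chr15:40035690-40039202 on the minus strand. The span from RASGRP1 to SRP14 is 1.55 Mb, of which 1016 kb is the gap between RASGRP1 and THBS1. The other 5 genes sit within 0.458 Mb. THBS1 and FSIP1 run towards each other and share 2027 bases on opposite strands. EIF2AK4 and SRP14 also run towards each other, with 98 bases between them. Of the 30 RefSeq genes in the span, 2 besides the members are in the table, and neither could be tested. C15orf53 had 0 counts in all 8 libraries, where a count of 0 allows up to 3 counts in a library, and C15orf54 had 5 counts in total.

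The sequences before the starts of the 4 genes that differed at least 2-fold are shown because members that move together could share promoter features. Each is the 250 bases before the RefSeq start, read 5′ to 3′ on the gene's own strand, with capitals marking the searched motifs that were found.
RASGRP1, chr15:38564815-38565064, minus strand: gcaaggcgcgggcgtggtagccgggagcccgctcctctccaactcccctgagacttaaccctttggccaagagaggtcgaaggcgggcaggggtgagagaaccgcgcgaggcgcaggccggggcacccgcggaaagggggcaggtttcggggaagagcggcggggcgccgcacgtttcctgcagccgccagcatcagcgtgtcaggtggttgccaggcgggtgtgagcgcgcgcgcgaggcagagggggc
THBS1, chr15:39580829-39581078, plus strand: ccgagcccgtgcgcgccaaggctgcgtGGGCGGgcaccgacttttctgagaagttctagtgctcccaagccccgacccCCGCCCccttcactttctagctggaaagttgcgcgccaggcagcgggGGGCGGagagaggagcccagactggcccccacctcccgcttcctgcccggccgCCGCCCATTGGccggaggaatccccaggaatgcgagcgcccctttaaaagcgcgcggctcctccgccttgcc
FSIP1, chr15:39782842-39783091, minus strand: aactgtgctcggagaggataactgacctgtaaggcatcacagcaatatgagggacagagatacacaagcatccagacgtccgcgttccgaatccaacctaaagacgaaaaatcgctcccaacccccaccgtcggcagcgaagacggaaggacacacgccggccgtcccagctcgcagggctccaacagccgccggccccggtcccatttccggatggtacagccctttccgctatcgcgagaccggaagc
GPR176, chr15:39920267-39920516, minus strand: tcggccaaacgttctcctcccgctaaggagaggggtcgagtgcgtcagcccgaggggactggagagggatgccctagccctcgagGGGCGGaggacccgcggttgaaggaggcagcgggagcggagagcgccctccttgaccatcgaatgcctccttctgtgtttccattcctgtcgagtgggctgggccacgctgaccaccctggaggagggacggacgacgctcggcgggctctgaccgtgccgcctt

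The capitals in these windows are GC boxes (GGGCGG on either strand) in THBS1 and GPR176 and a CCAAT box (CCAAT on either strand) in THBS1 that directly follows a GC box. THBS1 held 4 GC boxes and GPR176 held 1, and the windows of EIF2AK4 and SRP14 held GC boxes as well. A GC box was present in 42.3% of the 27305 RefSeq promoter windows of this length and a CCAAT box in 33%. RASGRP1 and FSIP1 held none of the searched motifs, so no motif was shared by the 4 genes. Neither an estrogen response element (in 0.0439% of windows) nor a progesterone and androgen response element (in 0.00366%) was found before any of the 6 starts. The E-box (CACGTG, in 6.49%), the amino acid response element (TGATGCAAT, in 0.245%) and the NRF1 site (in 1.13%) had no match either. An AP-1 site (TGANTCA, in 6.6%) was found for EIF2AK4, and a TATA box (TATAAA, in 11.1%) for SRP14. All motifs were read on both strands, and a match or its absence describes the letters of this window alone. The 6 windows held more CpG than the median of 11 over all windows. There were 28 in RASGRP1, 24 in THBS1, 23 in each of FSIP1 and GPR176, 19 in EIF2AK4 and 17 in SRP14. Of all windows, 86.2% held as many as RASGRP1 or fewer, and 63.5% as many as SRP14 or fewer, so such numbers are common.

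Total counts per library ranged from 18025648 to 30609791. NPY1R, the gene that names the groups, had 17256 to 28986 counts in the 4 NPY1R high libraries and 2028 to 2709 in the 4 NPY1R low ones, so the labels held in every library. The luminal and ERBB2 markers ERBB2, ESR1, GATA3, KRT8, KRT18, KRT19 and EPCAM were all present. Of these 7, ESR1 and GATA3 were higher in NPY1R high, with log2 differences of 0.59 (SE 0.05, adjusted p 7.23e-05) and 0.60 (SE 0.11, adjusted p 0.00616), and EPCAM was lower, with -0.30 (SE 0.05, adjusted p 0.00436). The part of such differences in the results on the 6 genes was not tested. Of 7 fibroblast markers, COL1A2, DCN, PDGFRB and POSTN had 0 counts in every library, and the summed level of the list was 10.9 to 17.5 CPM with NPY1R high against 10.4 to 17.5 with NPY1R low, nearly all of it COL1A1. CD3D, CD3E and CD2 of the T cell and blood list had 0 counts in every library, as did the platelet genes PF4, PPBP and GP9. The summed blood list was at 1.54 to 2.49 CPM with NPY1R high against 1.74 to 2.91 with NPY1R low, and the summed platelet list at 0.977 to 1.34 and 1.24 to 1.71 CPM. The summed endothelial list, nearly all VWF, was at 9.26 to 15.6 CPM with NPY1R high against 13.5 to 18.3 with NPY1R low.

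All 6 genes were higher in NPY1R high, by different amounts. RASGRP1 and THBS1 were 3.23-fold higher each, FSIP1 and GPR176 were 2.07-fold and 2.09-fold higher, and EIF2AK4 and SRP14 were 1.14-fold and 1.18-fold higher. The groups did not overlap for any of the 6. These differences were known when the genes were chosen, so they are given as a description with their standard errors and without a test. For comparison, 8.77% of all tested genes were higher without overlap, 5.78% were higher at an adjusted p under 0.05, and 2.2% were at least 2-fold higher, as 4 of the 6 were. Nothing is read from the members' counts against these shares. In bulk RNA, a larger share of cells expressing a gene cannot be told apart from more RNA of that gene in each cell.

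RASGRP1 had 203, 232, 254 and 118 counts in NPY1R high replicates 1 to 4, which correspond to 6.97, 8.63, 9.19 and 6.498 CPM, the unit of counts scaled to a common library size. In NPY1R low replicates 1 to 4 it had 70, 68, 68 and 48 counts, or 2.35, 2.38, 3.11 and 1.89 CPM. The lowest NPY1R high library stood 2.09-fold above the highest NPY1R low library, replicate 3. Its mean was 7.82 ± 1.29 CPM with NPY1R high against 2.43 ± 0.507 CPM with NPY1R low (SD, n = 4 each), and the log2 difference was 1.69 (SE 0.18). The difference was alike across the replicate numbers, at 1.68 between replicates 1 and 2 and 1.64 between replicates 3 and 4.

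THBS1 was the most abundant member by CPM in NPY1R high. It had 292.0, 287.0, 332.0 and 346.6 CPM in NPY1R high replicates 1 to 4, and 104.7, 99.5, 90.8 and 94.1 CPM in NPY1R low replicates 1 to 4. All 4 NPY1R high libraries were at least 2.74-fold above any NPY1R low library. The means were 314.4 ± 29.5 and 97.3 ± 6.10 CPM (SD, n = 4 each), a log2 difference of 1.69 (SE 0.08). Among NPY1R high libraries replicates 3 and 4 were the higher ones, and among NPY1R low libraries they were the lower ones, so the difference was 1.504 between replicates 1 and 2 and 1.87 between replicates 3 and 4.

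FSIP1 had 140, 106, 205 and 115 counts in NPY1R high replicates 1 to 4, or 4.81, 3.94, 7.42 and 6.33 CPM. It had 95, 71, 51 and 71 counts in NPY1R low replicates 1 to 4, or 3.19, 2.49, 2.33 and 2.79 CPM. The groups came close, the lowest NPY1R high library being 1.24-fold above the highest NPY1R low library. The log2 difference was 1.05 (SE 0.21), from 2.70 ± 0.377 to 5.63 ± 1.55 CPM (SD, n = 4 each). It was uneven, at 0.62 between replicates 1 and 2 and 1.40 between replicates 3 and 4, the widest gap of this kind among the 6 genes.

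Because FSIP1 and THBS1 share sequence on opposite strands, reads from the much more abundant THBS1 could be counted as FSIP1 where strand was not used. The library kit marks strand, but the strand setting of the authors' counting is not given in the sources used here. For every 100 THBS1 counts there were 1.65, 1.37, 2.23 and 1.83 FSIP1 counts in NPY1R high replicates 1 to 4, and 3.04, 2.5, 2.57 and 2.96 in NPY1R low. The ratio was lower in every NPY1R high library than in any NPY1R low library, which by itself does not show how the FSIP1 counts arose. How many FSIP1 counts came from THBS1 was not tested, and the value of FSIP1 is uncertain for that reason.

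GPR176 was the least abundant member, with 62, 43, 57 and 35 counts in NPY1R high replicates 1 to 4 and 24, 21, 27 and 24 counts in NPY1R low. These are 2.13, 1.60, 2.06 and 1.93 CPM against 0.805, 0.736, 1.24 and 0.943 CPM. NPY1R high replicate 2 and NPY1R low replicate 3 were the nearest libraries of the 2 groups, 1.29-fold apart. The means were 1.93 ± 0.236 and 0.930 ± 0.221 CPM (SD, n = 4 each), a log2 difference of 1.07 (SE 0.21). It ran the other way from FSIP1 across the replicate numbers, at 1.18 between replicates 1 and 2 and 0.84 between replicates 3 and 4.

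EIF2AK4 and SRP14, the last 2 genes on the map, were expressed well above FSIP1 and GPR176 and differed little. EIF2AK4 had 124.3, 128.1, 134.1 and 131.9 CPM in NPY1R high replicates 1 to 4 and 116.0, 110.0, 110.2 and 120.1 CPM in NPY1R low. Its log2 difference was 0.18 (SE 0.05), from 114.1 ± 4.88 to 129.6 ± 4.32 CPM (SD, n = 4 each), and the nearest libraries of the groups were 1.03-fold apart. Leaving out NPY1R low replicate 4 moved the difference to 0.25, and leaving out NPY1R low replicate 2 moved it to 0.17, so its size depended on single libraries.

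SRP14 had 157.1, 174.1, 178.3 and 160.0 CPM in NPY1R high replicates 1 to 4 and 142.1, 144.5, 144.2 and 136.9 CPM in NPY1R low. Its means were 167.4 ± 10.4 and 141.9 ± 3.496 CPM (SD, n = 4 each), a log2 difference of 0.24 (SE 0.06). Without NPY1R high replicate 2 its log2 difference was 0.22, and without NPY1R high replicate 4 it was 0.30. The NPY1R low libraries lay close together and the NPY1R high libraries spread more widely above them.

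**Figure D1:**
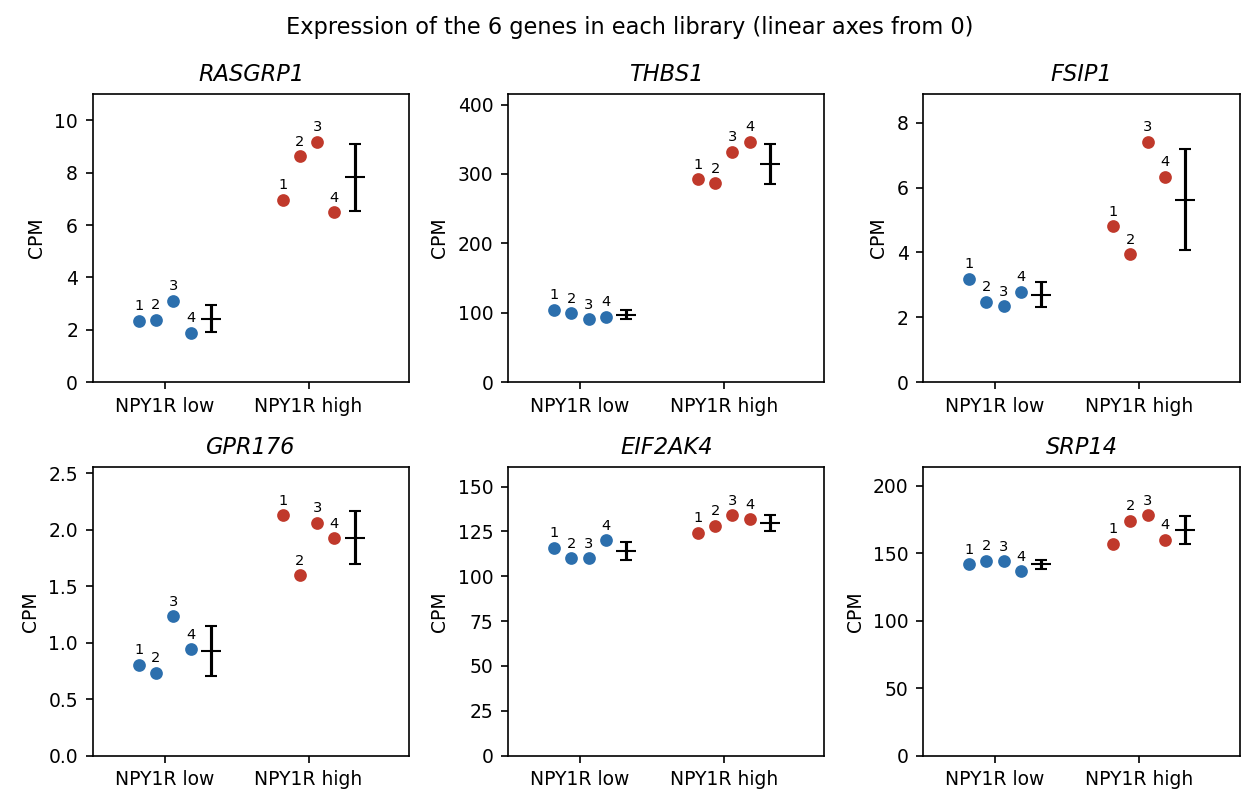
Level of each of the 6 genes in CPM (linear axis from 0) in the 4 NPY1R low and 4 NPY1R high libraries, with replicate numbers beside the points and the mean ± SD of 4 libraries in black. RASGRP1 and THBS1 show wide gaps between the groups, EIF2AK4 and SRP14 narrow ones, and the groups do not overlap in any panel.

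Divided by transcript length (the longest protein-coding GENCODE 29 transcript of each gene), the order of the levels was different from that by CPM. In NPY1R high, SRP14 stood at 155.4 ± 9.67 CPM per kb, THBS1 at 40.4 ± 3.79, EIF2AK4 at 23.6 ± 0.786, FSIP1 at 2.01 ± 0.553, RASGRP1 at 1.56 ± 0.257 and GPR176 at 0.502 ± 0.0614 (SD, n = 4 each). In NPY1R low, SRP14 led with 131.8 ± 3.25 CPM per kb and EIF2AK4 with 20.7 ± 0.887 came ahead of THBS1 with 12.5 ± 0.785. FSIP1 then had 0.962 ± 0.134, RASGRP1 0.484 ± 0.101 and GPR176 0.242 ± 0.0576 CPM per kb. FSIP1 and RASGRP1 did not differ beyond their spread in NPY1R high, while the other neighbours in either order did. THBS1 and EIF2AK4 changed places between the groups.

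In map order the log2 differences were 1.69, 1.69, 1.05, 1.07, 0.18 and 0.24, and their shape along the map was not tested. The log2 ratio of RASGRP1 to THBS1 within a library was -5.32 ± 0.297 in NPY1R high and -5.30 ± 0.325 in NPY1R low (SD, n = 4 each), so these 2 genes kept their proportion although 1016 kb separates them. The ratio of FSIP1 to GPR176 likewise was 1.47 ± 0.319 and 1.48 ± 0.433, and that of EIF2AK4 to SRP14 was -0.37 ± 0.0738 and -0.32 ± 0.0960. For these 3 pairs the libraries of the 2 groups overlapped. The other 2 pairs of map neighbours shifted without overlap. THBS1 to FSIP1 went from 5.14 ± 0.139 in NPY1R low to 5.82 ± 0.287 in NPY1R high, a shift of 0.68. That ratio is uncertain, because the 2 genes share sequence and FSIP1 counts may include THBS1 reads. GPR176 to EIF2AK4, 13.8 kb apart, went from -6.85 ± 0.316 to -6.02 ± 0.183, a shift of 0.83. The 95% intervals of FSIP1 (0.58 to 1.52) and GPR176 (0.60 to 1.54) lay above those of EIF2AK4 (0.07 to 0.30) and SRP14 (0.11 to 0.36). Those of RASGRP1 (1.29 to 2.10) and THBS1 (1.52 to 1.86) overlapped those of FSIP1 and GPR176. These intervals describe genes chosen for their differences and are no test of a step.

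**Figure D2:**
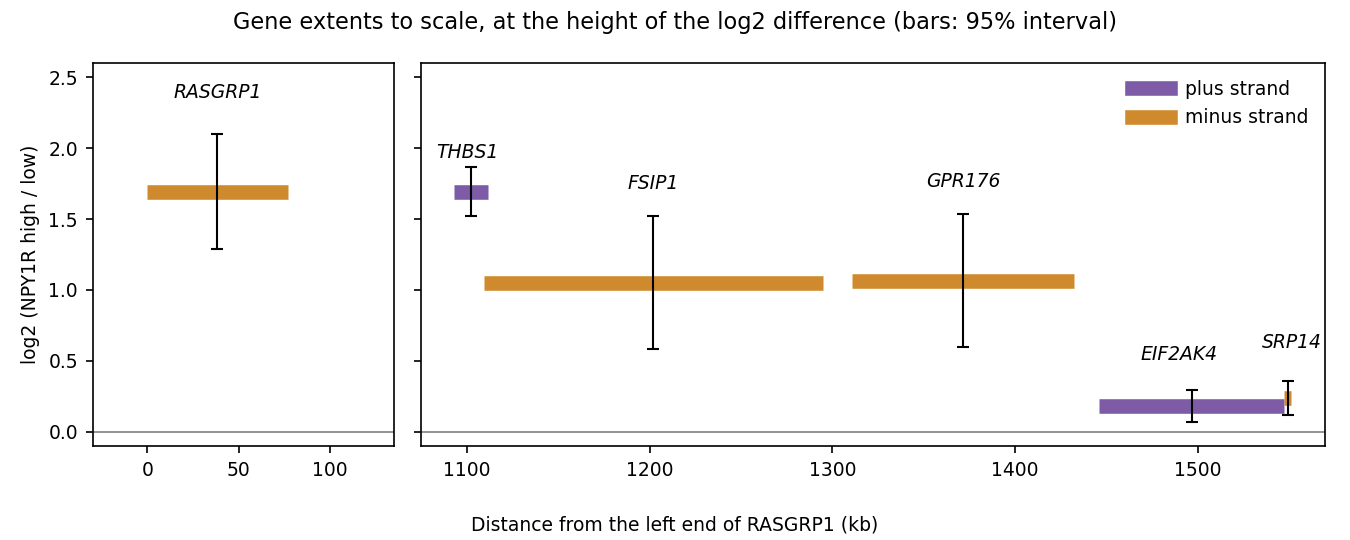
Extent of the 6 genes to scale, as distance in kb from the left end of RASGRP1 with the gap before THBS1 left out, each drawn at the height of its log2 difference (NPY1R high over NPY1R low) with its 95% interval and coloured by strand. RASGRP1 and THBS1 lie at 1.69, FSIP1 and GPR176 near 1.05 and 1.07, and EIF2AK4 and SRP14 at 0.18 and 0.24.

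The libraries within a group ranked in part alike and in part differently for different members. In NPY1R high, RASGRP1, FSIP1, EIF2AK4 and SRP14 were highest in replicate 3, THBS1 in replicate 4 and GPR176 in replicate 1. RASGRP1 and SRP14 were next highest in replicate 2. GPR176 and FSIP1 were lowest in replicate 2, where RASGRP1 was near its top. In NPY1R low, RASGRP1 and GPR176 were both highest in replicate 3, where THBS1 and FSIP1 were at their lowest. RASGRP1 and GPR176 in NPY1R low rest on 21 to 70 counts a library, which limits how far the order of libraries can be read.

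**Figure D3:**
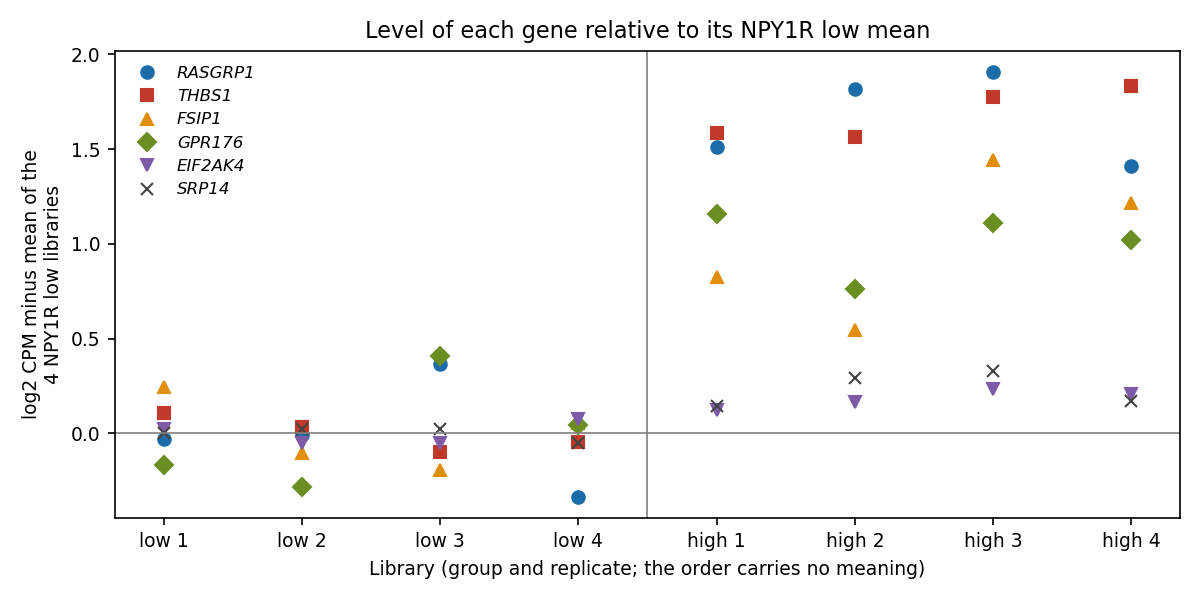
Log2 CPM of each gene minus its mean over the 4 NPY1R low libraries, for every library (points, no order among replicates). The members stand in different orders in different NPY1R high libraries, with THBS1 between 1.56 and 1.83 and FSIP1 between 0.54 and 1.44.

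The nearest tested genes on either side of the 6 were read for a shared direction, though not all are close. Before RASGRP1, FAM98B lies 0.393 kb and SPRED1 130.9 kb away. The others on that side lie from 1387 kb (MEIS2) to 4121 kb (LPCAT4) away. The 10 after SRP14 lie within 343.5 kb. Of the 10 tested genes on either side, 0 were higher and 3 lower at an adjusted p under 0.05, against 5.78% higher and 7.81% lower of all tested genes, and in 20 genes a count of 0 is near that share. By the measure of overlap, 3 of the 20 were higher without overlap of the groups (LPCAT4 at a log2 difference of 0.39, SRP14-AS1 at 0.47 and C15orf56 at 0.28), against 8.77% of all tested genes. Another 5 were lower without overlap. In either direction, the groups did not overlap for 20.2% of all tested genes. At an unadjusted p under 0.05 in edgeR's test 2 were higher, GOLGA8B (adjusted p 0.0790) and SRP14-AS1, and DESeq2 called 1 of the 20 higher, again GOLGA8B. Their median log2 difference was 0.05, with 11 of 20 above 0, and that of all tested genes was -0.03. The 10 before RASGRP1 had a median of 0.09 and the 10 after SRP14 one of -0.10. All 476 tested genes of chromosome 15 with a position had a median of -0.04, with 28 higher and 49 lower.

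FAM98B, which takes part in tRNA ligation and ends 0.393 kb from the end of RASGRP1, had 20.2, 21.8, 21.3 and 19.6 CPM in NPY1R high and 18.8, 17.97, 19.5 and 21.3 CPM in NPY1R low. The groups overlapped, and its log2 difference was 0.10 (SE 0.08, adjusted p 0.525). On the other side, the non-coding SRP14-AS1 lies 0.109 kb beyond the start of SRP14 and was at 2.27 ± 0.358 and 1.64 ± 0.213 CPM (SD, n = 4 each). Its groups did not overlap, though the lowest NPY1R high library (1.82 CPM) and the highest NPY1R low library (1.81 CPM) nearly met. Its log2 difference of 0.47 (SE 0.18, adjusted p 0.128) was larger in size than those of EIF2AK4 and SRP14 and less precise. SPRED1, an inhibitor of RAS signalling that lies 130.9 kb before RASGRP1, had 25.9 to 27.2 CPM with NPY1R high against 31.9 to 38.9 with NPY1R low. It fell by 0.44 on the log2 scale (SE 0.08, adjusted p 0.00356), opposite in direction to RASGRP1. The other 2 flanking genes that fell were BUB1B, a spindle checkpoint kinase, with a log2 difference of -0.63 (SE 0.07, adjusted p 1.98e-04), and KNSTRN, a spindle protein, with -0.78 (SE 0.08, adjusted p 1.48e-04). Those 3 calls held under all 19 other fits.

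**Figure D4:**
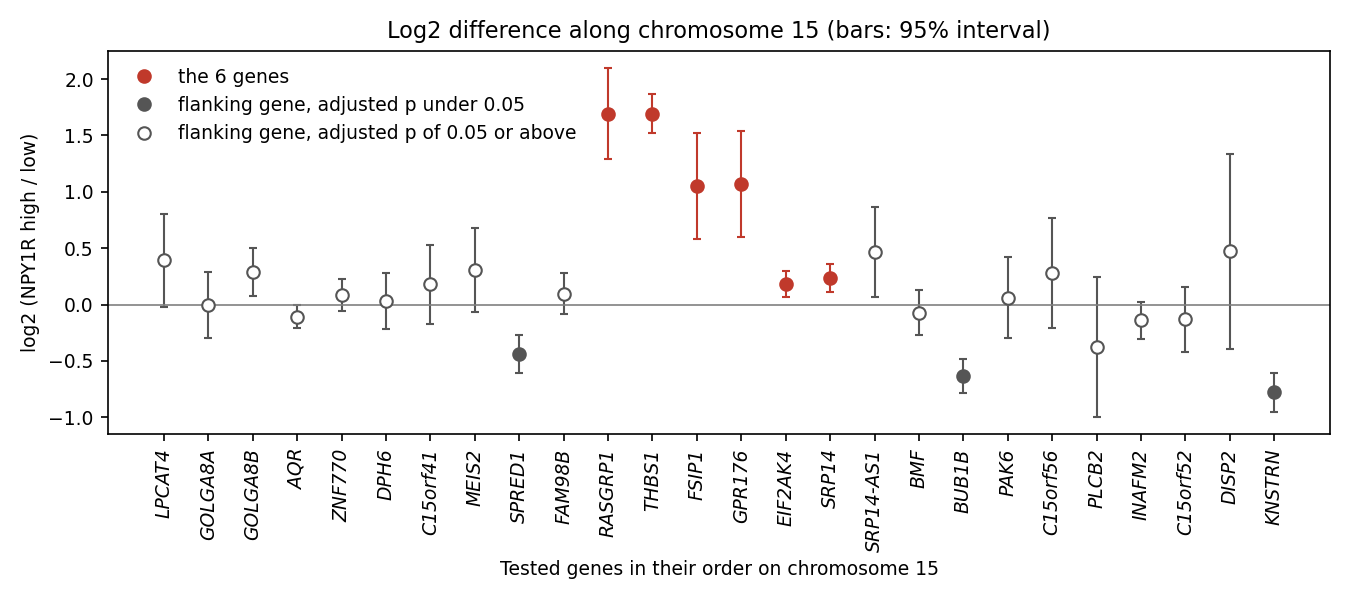
Log2 difference (NPY1R high over NPY1R low) with its 95% interval for the 6 genes (red) and the 10 tested genes on either side, in map order and not to scale. The 4 leftmost red points stand above 1, and filled grey points mark SPRED1, BUB1B and KNSTRN, which fell.

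The other genes of the members' pathways were read from 6 lists, in which 72 genes besides the members were tested. Of these, 5 were higher and 10 lower past the threshold (6.94% and 13.9%), against 5.78% and 7.81% of all tested genes, and their median log2 difference was -0.08. DESeq2 called 5 higher and 11 lower. The lists were drawn up with results of these data known, so the counts describe and support nothing.

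In the list of RAS exchange factors and diacylglycerol control, RASGRP1 was the one RASGRP gene with enough counts to test. RASGRP2, RASGRP3 and RASGRP4 had 13, 38 and 25 counts over all 8 libraries. Of 11 other tested genes, 0 were higher and 2 lower in edgeR's test, against 5.78% and 7.81% of all tested genes, with a median of -0.08. RASGRF2 and DGKA were higher at an unadjusted p under 0.05, and DESeq2 called 0 higher. SOS1, the exchange factor that links receptor kinases to RAS, had 54.2 ± 1.54 and 51.6 ± 6.66 CPM (SD, n = 4 each) and a log2 difference of 0.07 (SE 0.09, adjusted p 0.694). The falls were those of RASGRF1, a calcium-dependent exchange factor, at -0.58 (SE 0.16, adjusted p 0.0335), and of RASGEF1A at -0.47 (SE 0.13, adjusted p 0.0393). Both calls were lost in most fits that left out a library, RASGRF1 in all but that without NPY1R low replicate 4 and RASGEF1A in all but that without NPY1R low replicate 3. RASGEF1A also lost its call under each of 3 other scalings (adjusted p up to 0.0735).

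Among the receptors of THBS1, CD47 rose and CD36 was near the limit of detection. CD47, a cell surface receptor for THBS1 that also signals to phagocytes, had 151.6, 159.9, 160.7 and 144.1 CPM in NPY1R high replicates 1 to 4 and 79.1, 79.996, 74.6 and 79.3 CPM in NPY1R low. Every NPY1R high library stood far above every NPY1R low library. CD47 rose by 0.98 on the log2 scale (SE 0.05, adjusted p 4.70e-06), and the adjusted p stayed at or below 5.95e-05 in all 19 other fits. Of 11 other tested genes in the list, 4 were higher and 1 lower, against 5.78% and 7.81% of all tested genes, with a median of 0.08. The list was drawn up with results of these data known, so nothing is read from this count. The integrin subunit ITGA6 rose by 0.46 (SE 0.08, adjusted p 0.00310) and the heparan sulfate proteoglycan SDC4 by 0.28 (SE 0.05, adjusted p 0.00349). Both held in all other fits. The 6 not past the threshold included SDC1, lower at -0.49 (SE 0.17, adjusted p 0.0812). The rest of these 6 were ITGA3 at -0.05, ITGB1 at 0.04, CALR at 0.06, ITGAV at 0.08 and LRP1 at 0.13. DESeq2 called 4 of the list higher and 2 lower, against 1033 and 1088 over all tested genes. THBS3, another thrombospondin, rose by 0.36 (SE 0.09, adjusted p 0.0243), from 11.7 ± 0.613 to 15.03 ± 1.005 CPM (SD, n = 4 each). Its call was lost without NPY1R high replicate 1 or 3 and without NPY1R low replicate 1 or 3 (adjusted p up to 0.0612). CD36, the other classical THBS1 receptor, had 56 counts over all 8 libraries, 0.0703 ± 0.0738 CPM with NPY1R high against 0.458 ± 0.0656 with NPY1R low (SD, n = 4 each). It fell in the same test (adjusted p 0.00971) at a depth that gives its size little precision. THBS2, THBS4, COMP, ITGA4 and ITGB3 had 42 or fewer counts in total.

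In the sperm fibrous sheath list, 4 genes besides FSIP1 were tested and 0 passed in edgeR's test, where 13.6% of all tested genes did. None of the 4 had an unadjusted p under 0.05, and DESeq2 also called 0. FSIP2, another fibrous sheath protein, had 6.64 ± 2.64 and 4.46 ± 1.07 CPM (SD, n = 4 each), a log2 difference of 0.57 (SE 0.29, adjusted p 0.241). In NPY1R high it had 8.31 and 9.45 CPM in replicates 1 and 2 and 4.16 and 4.63 CPM in replicates 3 and 4, and in NPY1R low 5.37 and 5.39 against 3.61 and 3.46 CPM. Replicates 1 and 2 were thus the higher ones in both groups. When replicates 1 and 2 were set apart from 3 and 4 by a term in the fit, FSIP2 was called higher (adjusted p 0.0122). AKAP4 and ROPN1 had 0 counts in every library.

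Around GPR176, 13 other genes of Gz signalling and the circadian clock were tested, with a median of -0.07. Of these, 1 was higher and 2 lower, against 5.78% and 7.81% of all tested genes. GNAZ, which encodes the Gz subunit to which GPR176 couples, had 3.73 ± 0.236 and 3.93 ± 1.13 CPM (SD, n = 4 each, adjusted p 0.863). RGS16, an inhibitor of G protein signalling, fell by 0.84 on the log2 scale (SE 0.23, adjusted p 0.0386). The clock output factor DBP rose by 0.55 (SE 0.15, adjusted p 0.0342) and the clock repressor CRY1 fell by 0.29 (SE 0.06, adjusted p 0.0142). Leaving out a library ended the call of RGS16 in every case except NPY1R high replicate 4. The call of DBP ended in every case except NPY1R high replicate 2 and NPY1R low replicate 4, and also with the GC offset (adjusted p 0.120), and that of CRY1 without NPY1R high replicate 4 or NPY1R low replicate 4.

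The genes around EIF2AK4 gave falls and no rise past the threshold. Of 24 other tested genes of the eIF2 kinases and the amino acid response, 0 were higher in edgeR's test and 4 lower, the median was -0.15 and 3 were above 0. Of all tested genes 5.78% were higher and 7.81% lower. In 24 genes a count of 0 higher is near the first share, and the list was not tested against EIF2AK4. PPP1R15A, which counters eIF2 phosphorylation, was the 1 gene higher at an unadjusted p under 0.05 in edgeR's test (adjusted p 0.157). At that p 10 were lower, and no share of all tested genes is given for it here. DESeq2 called 0 higher and 4 lower, against 1033 and 1088 over all tested genes. The pseudokinase TRIB3, a target of this pathway, fell by 0.44 (SE 0.06, adjusted p 7.72e-04), from 149.2 ± 3.502 to 110.0 ± 7.51 CPM (SD, n = 4 each), and its call was lost with the GC offset. The serine synthesis enzymes PHGDH and PSAT1 fell by 0.30 (SE 0.07, adjusted p 0.0181) and 0.25 (SE 0.05, adjusted p 0.00678). PHGDH lost its call in 5 of the 8 fits that left out a library (NPY1R high replicates 2 and 3, NPY1R low replicates 1, 2 and 3), and PSAT1 in the fit without NPY1R high replicate 4. The sister kinase EIF2AK3 fell by 0.26 (SE 0.07, adjusted p 0.0398), a call lost in 13 of 19 other fits, 7 of them without a library (each one except NPY1R low replicate 2). GCN1, the partner that activates EIF2AK4, and ATF4, the factor translated after eIF2 phosphorylation, had log2 differences of -0.08 (adjusted p 0.819) and -0.04 (adjusted p 0.840).

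The particle of SRP14 gave few calls. Of 9 other tested genes of the signal recognition particle and its receptor, 0 were higher and 1 lower in edgeR's test, with a median of -0.08, a highest value of 0.05 and 3 of 9 above 0. In 9 genes, a count of 0 higher is near the 5.78% of all tested genes, of which 7.81% were lower. None was higher at an unadjusted p under 0.05, and DESeq2 also called 0 higher. SRP9, the direct partner of SRP14, had 623.2 ± 57.4 and 688.3 ± 66.7 CPM (SD, n = 4 each), a log2 difference of -0.14 (SE 0.09, adjusted p 0.342). SRP72 fell by 0.17 (SE 0.04, adjusted p 0.0292), a call lost in each of the 8 fits that left out a library and under 3 other scalings (adjusted p up to 0.158). The RNA genes RN7SL1 and RN7SL2 are near-identical copies whose reads the counting may split, so their log2 differences of 0.05 and 0.04 are uncertain.

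**Figure D5:**
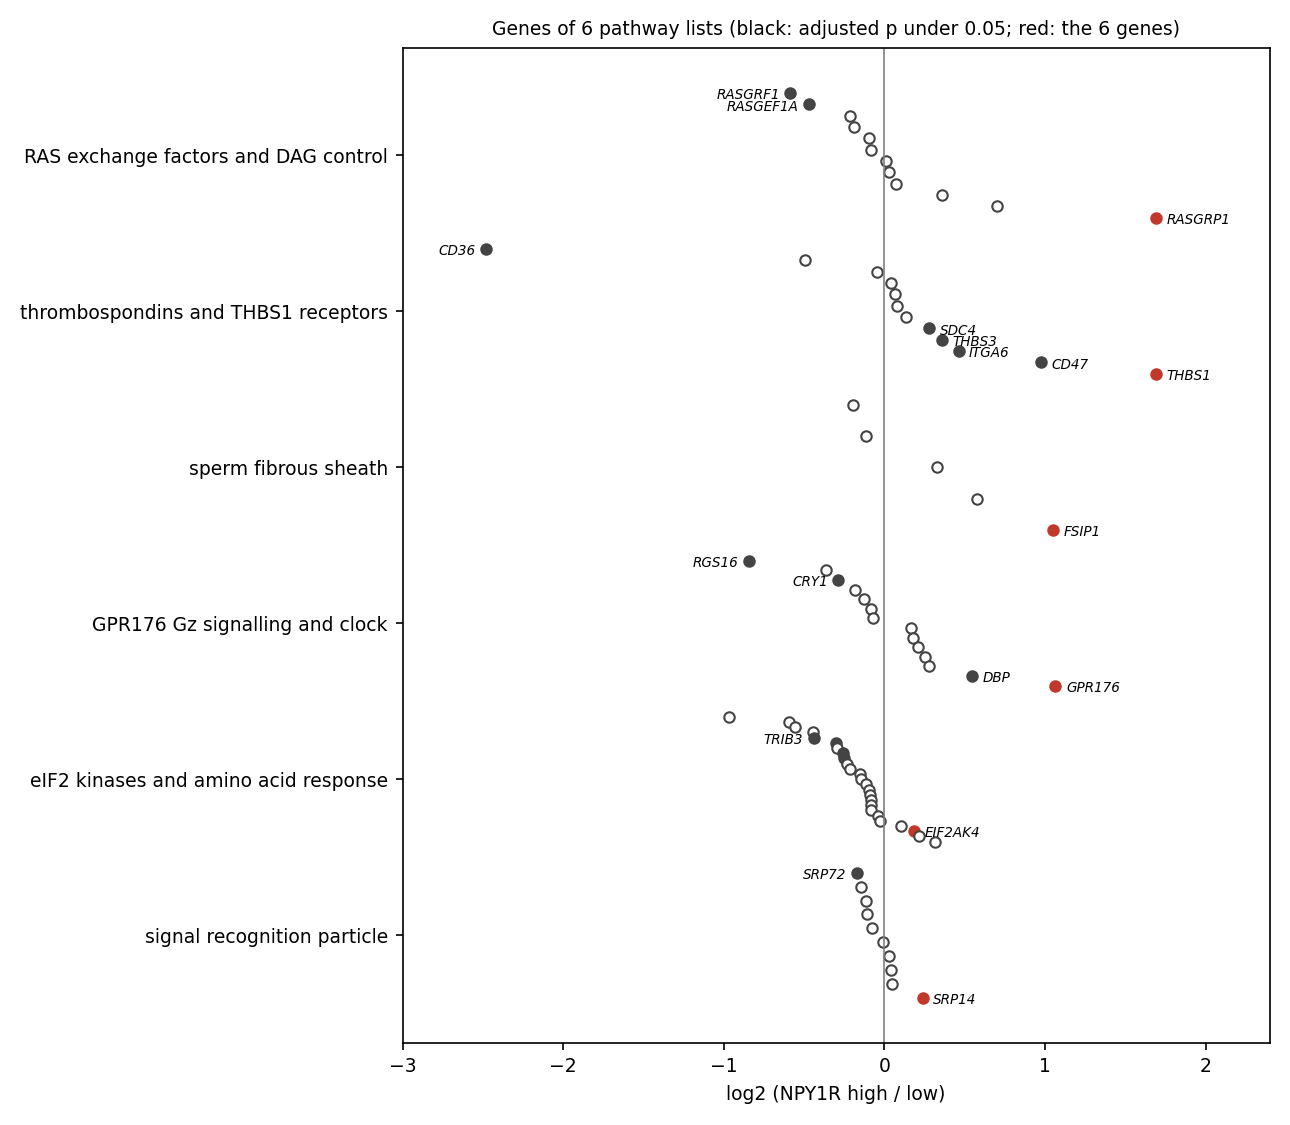
Log2 difference (NPY1R high over NPY1R low) of every tested gene in 6 pathway lists, with the 6 genes in red, other genes past an adjusted p of 0.05 filled and the rest open. Each red point is the highest of its list except EIF2AK4, and CD47 at 0.98 is the highest of the others.

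The genes with the profile most like that of a member over the 8 libraries were also listed. Likeness was the root mean square difference between log2 CPM profiles after each gene's mean was removed, over 12627 other genes with a mean of at least 1 CPM, and is given for the 4 members with a log2 difference of at least 1. For RASGRP1 the nearest were FRMD3 on chromosome 9 (0.13), HDAC9 on chromosome 7 (0.19) and CST1 on chromosome 20 (0.22). For THBS1 they were CST1 (0.10), MATN2 on chromosome 8 (0.12) and CAPS2 on chromosome 12 (0.16). For FSIP1 they were C12orf60 on chromosome 12 (0.15), ARHGAP26 on chromosome 5 (0.18) and SH3BP5 on chromosome 3 (0.19). For GPR176 they were SEMA6A on chromosome 5 (0.14), SAMD9 on chromosome 7 (0.16) and KIAA1210 on chromosome X (0.16). RASGRP1 and THBS1 were 0.27 apart, THBS1 being the 14th nearest gene to RASGRP1 and RASGRP1 the 40th nearest to THBS1. FSIP1 and GPR176 were 0.33 apart, with ranks of 170 and 234. The measure follows largely the size of the difference between groups, by which the members were chosen, so it is a description and says nothing about the locus.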

How the data were processed

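RNA-seq of BT474 cells was made into estimated counts per gene that the authors deposited without scaling, and the submitters' processing notes name STAR 2.5.2, RSEM 1.3.0 and hg38. The annotation and the strand option of counting are not given in the sources used here. RSEM shares reads between genes, so 7.97% to 8.76% of all values of a library, zeros included, were not whole. The deposited values were rounded to whole numbers, where the design had assumed counts. The files of single samples held the values of the series table. All columns matched a sample.

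Groups came from the sample descriptions in the labels, 4 libraries each. Totals of 18025648 to 30609791 set the precision of low genes such as GPR176. Library pairs within a group differed by a chi-square of 6.00 to 66.4 per degree of freedom, so none was a duplicate. Genes were kept by filterByExpr (minimum count 10), scaled by TMM and fitted together by edgeR 4.0.16's quasi-likelihood test with Benjamini-Hochberg adjustment at 0.05 (R 4.3.3). Log2 CPM used a prior count of 2. Positions and promoters were from RefSeq (GRCh38.p14, 13747 tested genes matched), and lengths and GC from GENCODE 29 (97.3% of tested genes).

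The members and lists were chosen with earlier results of these data known. Named genes were the members, listed partners of each, up to 5 called genes of a list by size, called flanking genes and the nearest gene on either side. GOLGA8B, RASGRF2, DGKA, PPP1R15A, LPCAT4, C15orf56, ESR1, GATA3, EPCAM and the RN7SL copies were added after their values were seen. So were SDC1, ITGA3, ITGB1, CALR, ITGAV, LRP1 and MEIS2. Alternatives were other scalings and filters, DESeq2 1.42.0, limma-voom (limma 3.58.1), a replicate block, a GC offset, a term setting replicates 1 and 2 apart from 3 and 4, and each library left out. The code was tested on simulated data.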

Additional observations from a re-analysis of the deposited data

Results flagged for a closer look

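Each flag marks 1 library that stood away from the other 3 of its group, by the gap to its nearest neighbour as a share of the group's range. Of 64 group values examined 4 passed Dixon's critical value at 95%, where chance gives about 3.2, and no member was among them. In NPY1R high, CRY1 had a share of 0.905, with 28.9 CPM in replicate 4 against 30.6 to 30.8. GCN1 had 0.938, with 201.4 CPM in NPY1R high replicate 3 against 308.0 to 315.1. TRIB3 had 0.913, with 98.7 CPM in NPY1R high replicate 2 against 112.8 to 114.2. ITGA6 had 0.854 in NPY1R low, with 77.1 CPM in replicate 4 against 69.0 to 70.1.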

How the results depend on the processing

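All 6 members had a positive log2 difference in each of 19 other fits. The smallest of RASGRP1, THBS1, FSIP1 and GPR176 (at least 0.91) stayed above the larger of EIF2AK4 and SRP14 (at most 0.30). Past the adjusted p threshold were 6 members in the main fit and 4 to 6 in the others. The fewest passed without NPY1R high replicate 2, where EIF2AK4 (adjusted p 0.0810 in edgeR's test) and SRP14 (0.0568) did not. The adjusted p of EIF2AK4 reached 0.114, without NPY1R low replicate 3. The members' log2 differences ranged from 1.63 to 1.82 for RASGRP1, 1.66 to 1.76 for THBS1, 0.91 to 1.19 for FSIP1, 0.97 to 1.22 for GPR176, 0.15 to 0.25 for EIF2AK4 and 0.20 to 0.30 for SRP14. With a library left out, EIF2AK4 ranged from 0.17 to 0.25 and SRP14 from 0.22 to 0.30. The share of calls that were higher was 42.5% with TMM, 49.8% with median-of-ratios factors, 56.3% with upper-quartile factors and 54.04% with library totals.

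Over all tested genes, 810 were higher and 1094 lower. The lower count was 1759 with the GC offset and 1681 with the term for replicates 1 and 2 against 3 and 4. With a library left out the counts were 624 to 1068 higher and 625 to 1064 lower. The pathway lists had 10 lower, which became 6 with upper-quartile factors, 4 without a filter, 6 with the 1 CPM filter and 4 to 6 with a library left out. Their 5 higher became 3 to 5 with a library left out. Of the flanking genes 0 were higher, and 1 was with DESeq2, with the term for replicate numbers or with 20 genes on either side, where 6 were lower instead of 3. The flanking median of 0.05 was 0.10 with upper-quartile factors and 0.0124 to 0.123 with a library left out. ATF4 changed sign with upper-quartile factors (0.0121), with the 1 CPM filter (4.11e-05) and without NPY1R high replicate 2 or NPY1R low replicate 4 (range with a library left out -0.0866 to 0.0603). GCN1 did without NPY1R high replicate 3 (range -0.149 to 0.0849), GNAZ without NPY1R low replicate 1 (-0.205 to 0.123) and SOS1 without NPY1R low replicate 2 (-0.00201 to 0.166). The cause was not tested. Of 18 named genes called outside the members, 7 kept their call in every fit that could test them.

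Same-numbered libraries had positive correlations of 0.339, 0.157, 0.0907 and 0.0178 in their deviations. Libraries of different numbers were not compared, so these values cannot settle whether the numbers mark pairs. The main fit did not take them as pairs. With the replicate block, the log2 difference of EIF2AK4 was 0.18, with an adjusted p of 0.0773 against 0.0388 in the main fit. In that fit 1 flanking gene was higher, and FSIP2 was called (adjusted p 0.0495). The block ended the calls of THBS3 (0.0512), RASGRF1 (0.0609), RASGEF1A (0.0621), DBP (0.0606) and SRP72 (0.0840). The replicate block with the GC offset gave 1352 higher and 1991 lower over all genes, 10 higher and 17 lower in the pathway lists and 1 higher flanking gene. Low counts limit GPR176, FSIP1 and CD36 most.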
